A study of Mus musculus with 12 samples.

Results

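Furin is a protease of the secretory pathway, and TGF-beta is the cytokine whose precursor it cuts. The genes described here are 9, chosen by name: Furin, its relative Pcsk7, the ligand gene Tgfb1, the surface anchor gene Lrrc32, the receptor genes Tgfbr1 and Tgfbr2, and Smad2, Smad3 and Smad7 of the intracellular pathway. All 9 were on the array with 1 probe set each, out of 19752 genes and 24922 probe sets in all. Their values come from CD4+ (helper) T cells on 12 Affymetrix Mouse Gene 1.0 ST arrays. The cells were taken from spleens of male C57BL/6 mice, 6 weeks of age, by removal of other cell types, and all groups had a 48 h activation step with CD3/CD28 beads before anything else was done. IL-12, made by antigen-presenting cells, signals through STAT4 and promotes the Th1 type of helper cell. IL-12 at 100 U/ml was given for 8 h to 4 samples and for 2 h to 5 samples, 2 samples were left untreated for 2 h, and 1 baseline sample carries no culture time in its labels. There is no untreated sample at 8 h. IL-12 and time in culture therefore cannot be told apart in the comparison of IL-12 at 8 h with untreated cells at 2 h. The same holds for 8 h against 2 h of IL-12, where longer IL-12 and longer culture go together.

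Furin cleaves the TGF-beta precursor into a mature dimer and a latency peptide that stays wrapped around it, so the secreted complex is inactive until integrins or proteases release the cytokine. GARP, the product of Lrrc32, holds the latent complex on the surface of activated regulatory T cells and of platelets. Free TGF-beta binds the type II receptor (Tgfbr2), which phosphorylates the type I receptor (Tgfbr1), and the activated type I receptor phosphorylates SMAD2 and SMAD3, which enter the nucleus with SMAD4. SMAD7 is an inhibitor that the pathway itself induces and that promotes receptor degradation. In helper T cells TGF-beta restrains Th1 differentiation and supports regulatory T cells, and Furin is known in T cells as a gene induced by IL-12 through STAT4.

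Furin was the member that differed between IL-12 and untreated cells at 2 h, so its promoters are shown. RefSeq lists a pair of Furin start sites on the minus strand of chromosome 7 in the mouse build GRCm38.p6, and each window runs from 250 bases before the start to 50 after it. Window 1 is chr7:80405387-80405686 and window 2 is chr7:80402763-80403062. Capitals mark CAGAC, the short element that SMAD3 and SMAD4 contact.
Furin window 1: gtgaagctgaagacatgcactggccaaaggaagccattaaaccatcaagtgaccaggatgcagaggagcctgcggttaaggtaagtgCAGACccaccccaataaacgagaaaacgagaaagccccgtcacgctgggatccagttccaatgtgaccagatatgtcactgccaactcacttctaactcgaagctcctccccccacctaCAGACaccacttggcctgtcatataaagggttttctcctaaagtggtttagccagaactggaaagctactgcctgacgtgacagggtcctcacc
Furin window 2: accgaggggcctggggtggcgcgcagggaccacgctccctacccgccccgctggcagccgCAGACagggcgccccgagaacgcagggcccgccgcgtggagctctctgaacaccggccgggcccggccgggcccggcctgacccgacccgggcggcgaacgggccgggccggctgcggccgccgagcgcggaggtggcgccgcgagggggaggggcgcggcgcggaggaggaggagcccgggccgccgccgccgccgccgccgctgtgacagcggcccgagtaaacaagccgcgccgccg

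The windows differ in composition. Window 1 is 51.3% G or C with 7 CpG, near the median of all windows in the table (52.7% and 7 CpG). Window 2 is 82.3% G or C with 51 CpG, and 99.6% of windows have a lower share. Each window was searched on both strands for TTCNNNGAA, the palindrome that STAT proteins contact, for CAGAC with its reverse complement GTCTG, and for the longer palindrome GTCTAGAC of SMADs. None of these motifs contains another. TTCNNNGAA was in neither Furin window, nor in any of the 8 windows searched for 6 of the 9 members. Of all 32851 windows, 8.3% hold it. Chromosome 18, where Smad2 and Smad7 lie, was left out of the member windows, and no Lrrc32 window was available, so these promoters were not searched. CAGAC or GTCTG was in 4 of the 8 member windows, with 2 matches in Furin window 1 and 1 match each in Furin window 2, 1 Tgfbr1 window and the Tgfbr2 window, against 49.6% of all windows. GTCTAGAC was in 0 of the 8 and in 0.213% of all windows.

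Values are log2 intensities, and their precision is limited by the number of arrays. Median intensity was 160.6 to 167.3 on the 12 arrays, and the mean of every member lay above the median gene, with 65.2% of genes dimmer than Pcsk7 and 98.2% dimmer than Tgfb1. The 7 measured genes of the CD4+ T cell marker list were all above the array median, with a mean of 11.9997 to 12.24 on every array. That list includes genes that other T cells share. The 2 CD8 T cell markers, 1 of them below the array median, averaged 7.76 to 8.39. The sample titles are numbered, and arrays numbered 2 to 4 stood apart from those numbered 5 to 8: 24.3% of all genes differed between these runs of numbers. IL-12 samples are in both runs, at 8 h as arrays 2, 3, 5 and 6 and at 2 h as arrays 2 to 6, whereas untreated arrays 7 and 8 and baseline array 5 have the higher numbers only. The model therefore held a term for the run, although the meaning of the numbers is unlabelled. The baseline array correlated more closely with the arrays 2 to 4 (median r 0.993 across genes) than with the others (0.989). Whether the samples within a group are separate animals or cultures is not in the labels. The p-values therefore reflect how much these arrays vary, and that variation may be technical.

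**Figure D1:**
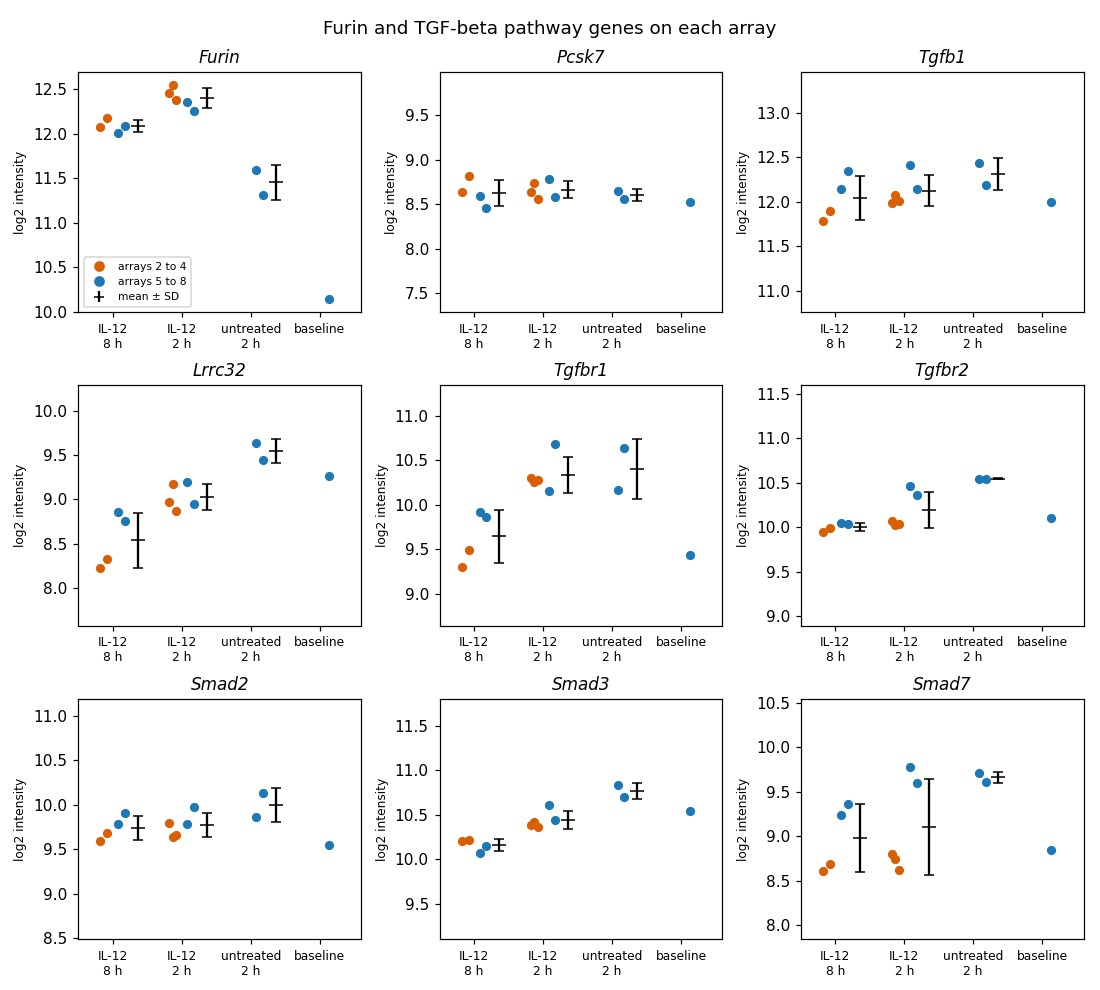
Log2 intensity of each of the 9 genes (vertical axis, 1 panel per gene) on the 12 arrays, by group and coloured by number run. Black bars give the mean ± SD of each group with more than 1 array. Furin was at 11.31 and 11.59 on the untreated arrays, below all 9 IL-12 arrays, which lay at 12.01 to 12.55.

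At 2 h of IL-12, 1 of the 9 genes was called higher than in untreated cells at an adjusted p under 0.05 (limma, Benjamini-Hochberg over all genes) and 0 were called lower. The gene was Furin. Of all genes, 0.0709% were called, and all of those were higher. At an unadjusted p under 0.05 in the same fit, Lrrc32, Tgfbr2 and Smad3 were also lower, which made 3 members lower and 1 higher by that rule, by which 432 of the 19752 genes were lower and 539 higher. At 8 h of IL-12 against untreated cells at 2 h, 1 member was called higher (Furin) and 3 lower (Lrrc32, Smad3 and Tgfbr2), where 3.16% of all genes were called, 1.04% higher and 2.13% lower. At 8 h against 2 h of IL-12, 5 members were called lower (Tgfbr1, Lrrc32, Furin, Smad3 and Tgfbr2), where 12.6% of all genes were called, 6.27% higher and 6.36% lower. None was called higher there. At an unadjusted p under 0.05 in that comparison, 0 of the 9 were higher and 6 lower, where 2407 of the 19752 genes were higher and 2333 lower. Untreated cells at 2 h against the 1 baseline array gave 5 members called higher (Furin, Smad7, Tgfbr1, Tgfbr2 and Smad2) and none lower, where 10.2% of all genes were called, 6.28% higher and 3.96% lower. The median log2 change of the 9 was -0.06 at 2 h of IL-12 against untreated, -0.27 at 8 h against untreated and -0.22 at 8 h against 2 h, where the median over all genes was between -0.00936 and -0.00322. The comparisons share arrays: both IL-12 times were set against the same 2 untreated arrays.

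**Figure D2:**
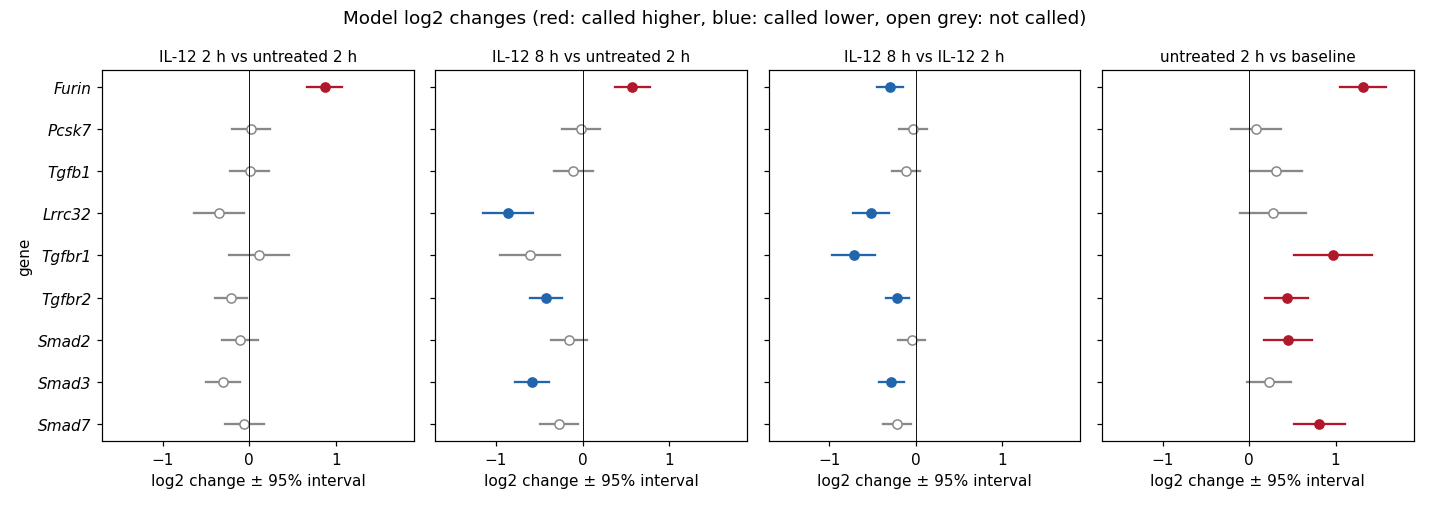
Log2 change of each gene in 4 comparisons (horizontal axis) with bars of the 95% interval from the model. Points are filled where the adjusted p was under 0.05. Furin was higher at 2 h (0.87) and at 8 h (0.57) of IL-12 than in untreated cells, while Lrrc32 (-0.86) and Smad3 (-0.59) were lower at 8 h.

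Furin was highest after 2 h of IL-12. Its log2 intensity was 12.08, 12.18, 12.01 and 12.08 at 8 h of IL-12 (arrays 2, 3, 5 and 6), 12.46, 12.55, 12.38, 12.36 and 12.25 at 2 h of IL-12 (arrays 2 to 6), 11.59 and 11.31 in untreated cells, and 10.14 at baseline. Every 8 h array was below every 2 h array, all 9 IL-12 arrays were above both untreated arrays, and baseline was the lowest. On the linear scale the group means were 4361 ± 210 at 8 h (SD, n = 4), 5418 ± 428 at 2 h (n = 5) and 2815 ± 380 in untreated cells (n = 2), against 1129 on the baseline array.

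In the model, Furin was 1.83-fold higher at 2 h of IL-12 than in untreated cells, a log2 change of 0.87 ± 0.09 (SE, 95% interval 0.67 to 1.08, limma adjusted p = 0.0025), and it had the second smallest p of all 19752 genes. At 8 h it was 1.49-fold higher than untreated, by 0.57 ± 0.09 (adjusted p = 0.00346). Between the IL-12 times it fell by 0.30 ± 0.07 at 8 h (adjusted p = 0.0101), and the within-run changes were alike, at -0.33 among arrays 2 and 3 against 2 to 4 and at -0.26 among arrays 5 and 6. Untreated cells were 1.31 ± 0.12 above baseline (adjusted p = 2.14e-05), the largest rise among the 9 in that comparison. The change at 2 h was 0.85 among the arrays numbered 5 to 8 alone, where its adjusted p was 0.148, and the call held without any 1 of the 12 arrays. The call at 8 h against untreated was lost without untreated array 8 (0.437, adjusted p = 0.0627).

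Markers of macrophages and monocytes were brightest in untreated cells, with some overlap with IL-12 at 2 h. Their mean log2 intensity over 15 measured genes, 12 of them below the array median, was 6.27 to 6.31 at 8 h of IL-12 and 6.37 to 6.39 at 2 h among arrays 2 to 4. Among the higher numbers it was 6.62 to 6.64 at 8 h and 6.60 to 6.75 at 2 h, against 6.73 to 6.83 in untreated cells and 6.48 at baseline. Of the 15, 8 were called lower and 1 higher in the lower run, and 0 were called in either comparison of IL-12 with untreated cells. NK cell markers (5 measured, 4 below the array median) averaged 5.96 to 6.01 at 8 h of IL-12 and 6.19 to 6.26 at 2 h among arrays 2 to 4. Among the higher numbers they averaged 6.23 to 6.36 at 8 h and 6.29 to 6.39 at 2 h. Untreated cells were at 6.44 and 6.49, above all IL-12 arrays, and baseline was at 6.10. Of the 5, 4 were called lower and 1 higher in the lower run. Their median log2 change against untreated cells was -0.19 at 2 h and -0.02 at 8 h. 1 of the 5 was called lower at 8 h against untreated cells, 0 at 2 h, and their part in the Furin result was not tested. With the macrophage and monocyte mean as a covariate, Furin was 0.89 higher at 2 h (limma adjusted p = 0.0596) and 0.605 higher at 8 h (adjusted p = 0.222). Neither was called. That mean itself varied with the run and was brightest in untreated cells, so the fit cannot separate it from either. The part of these markers in the Furin result was not tested.

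Pcsk7, a ubiquitous convertase that shares substrates with furin, varied little. It was 8.64, 8.82, 8.59 and 8.46 at 8 h of IL-12, 8.56 to 8.79 at 2 h with a median of 8.64, 8.65 and 8.56 in untreated cells, and 8.52 at baseline, and the groups overlapped. Its change at 2 h of IL-12 against untreated cells was 0.02 ± 0.10, with a 95% interval of -0.21 to 0.24. That interval lies below the whole Furin interval. Among the 5 other convertases measured, Pcsk1, Pcsk4, Pcsk5, Pcsk6 and Mbtps1, none was called in a comparison involving IL-12. The neuroendocrine convertase gene Pcsk1 was higher in untreated cells than at baseline (0.64, limma adjusted p = 0.0121). Its run term was -0.52 (adjusted p = 0.000397). Pcsk1 averaged 6.98 in untreated cells and was at 6.34 at baseline, near the IL-12 arrays numbered 2 to 4 (6.43 at 8 h and 6.36 at 2 h).

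Tgfb1, the ligand gene, was not called in any of the 4 comparisons. Its log2 intensity was 11.78, 11.90, 12.15 and 12.34 at 8 h of IL-12, 11.99, 12.07, 12.005, 12.41 and 12.15 at 2 h, 12.44 and 12.19 in untreated cells, and 12.001 at baseline. All IL-12 arrays numbered 2 to 4 were below all IL-12 arrays with higher numbers, and the run term was -0.32 ± 0.08 (adjusted p = 0.00731). The changes against untreated cells were 0.01 ± 0.11 at 2 h (95% interval -0.22 to 0.23) and -0.11 ± 0.11 at 8 h (-0.33 to 0.12).

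Lrrc32, which encodes the anchor GARP, was the member with the largest difference between IL-12 at 8 h and untreated cells. It was 8.23, 8.33, 8.86 and 8.76 at 8 h of IL-12, 8.97, 9.17, 8.87, 9.20 and 8.95 at 2 h, 9.64 and 9.45 in untreated cells, and 9.26 at baseline. The IL-12 groups did not overlap each other, and both lay below the untreated arrays. Relative to untreated cells the change was -0.35 ± 0.13 at 2 h, which was not called (adjusted p = 0.939), and -0.86 ± 0.13 at 8 h, where it was called (adjusted p = 0.00244). Between the IL-12 times Lrrc32 fell by 0.52 ± 0.10 at 8 h (adjusted p = 0.00316). That drop was -0.72 within arrays 2 to 4 and -0.27 within arrays 5 and 6, and the difference between the runs was -0.45 ± 0.15 (adjusted p = 0.171).

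Markers of regulatory T cells, which carry GARP, were lower at 8 h than at 2 h of IL-12 among arrays 2 to 4 and overlapped between the times among arrays 5 and 6. Their mean over 10 measured genes was 9.62 on both 8 h arrays numbered 2 and 3, against 9.83 to 9.89 on the 2 h arrays of that run, and 9.99 to 10.03 on the 8 h arrays 5 and 6, against 9.89 to 10.0025 at 2 h. Untreated arrays were at 9.92 to 9.96 and baseline at 9.74. Of the 10, 1 was called higher and 3 lower at 8 h against 2 h of IL-12, and their part in the Lrrc32 result was not tested. In bulk samples, fewer cells of a type and less RNA per cell cannot be told apart.

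The receptor genes Tgfbr1 and Tgfbr2 were both lower at 8 h than at 2 h of IL-12. Tgfbr1 was 9.30, 9.50, 9.91 and 9.86 at 8 h, 10.30, 10.25, 10.27, 10.16 and 10.68 at 2 h, 10.16 and 10.64 in untreated cells, and 9.43 at baseline. All 8 h arrays were below all 2 h and untreated arrays, while the 2 h arrays spanned the untreated ones. Tgfbr1 fell by 0.72 ± 0.12 at 8 h against 2 h (adjusted p = 0.001), the largest change among the members there, with -0.88 in the lower run and -0.53 in the higher. Against untreated cells the change was 0.11 ± 0.16 at 2 h (adjusted p = 0.999) and -0.61 ± 0.16 at 8 h, which missed the threshold (adjusted p = 0.0575) and passed it without IL-12 2 h array 5 (-0.529, adjusted p = 0.0328), without IL-12 2 h array 6 (-0.642, 0.0384) or without untreated array 7 (-0.845, 0.033).

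Tgfbr2 changed less. It was 9.94, 9.98, 10.04 and 10.04 at 8 h of IL-12, 10.07, 10.03, 10.04, 10.46 and 10.36 at 2 h, 10.55 and 10.54 in untreated cells, and 10.11 at baseline. The IL-12 groups overlapped across runs and not within a run, and every IL-12 array was below both untreated arrays. Its changes were -0.42 ± 0.09 at 8 h against untreated (adjusted p = 0.0159), -0.21 ± 0.09 at 2 h against untreated (adjusted p = 0.969) and -0.21 ± 0.06 at 8 h against 2 h (adjusted p = 0.0408). The change between the IL-12 times was -0.08 among arrays 2 to 4 and -0.37 among arrays 5 and 6, and the difference between the runs was 0.29 ± 0.10 (adjusted p = 0.213). The call between the IL-12 times was lost in 7 of the 12 fits that left out 1 array, and with the sample number as a replicate block the change was -0.229 (adjusted p = 0.14). The call against untreated cells was lost without IL-12 8 h array 5 or 6, or untreated array 7 or 8. Of the 4 other receptors and co-receptors measured, Tgfbr3, Eng, Acvrl1 and Bambi, none was called in a comparison involving IL-12.

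Smad3, which carries the TGF-beta signal to DNA, was lowest at 8 h of IL-12. It was 10.21, 10.22, 10.07 and 10.15 at 8 h of IL-12, 10.38, 10.42, 10.36, 10.61 and 10.45 at 2 h, 10.83 and 10.70 in untreated cells, and 10.54 at baseline. The 3 groups did not overlap, in the order 8 h, 2 h and untreated. Smad3 was -0.59 ± 0.09 at 8 h against untreated (adjusted p = 0.00215) and -0.28 ± 0.07 at 8 h against 2 h (adjusted p = 0.011). With the replicate block the change between the IL-12 times was -0.301 (adjusted p = 0.0562). It was -0.17 among arrays 2 to 4 and -0.42 among arrays 5 and 6, and the difference between the runs was 0.25 ± 0.11 (adjusted p = 0.338). The change at 2 h against untreated was -0.30 ± 0.09 and was not called (adjusted p = 0.759).

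Smad2, the partner of Smad3 as a receptor substrate, was 9.59, 9.68, 9.78 and 9.91 at 8 h of IL-12, 9.64 to 9.98 at 2 h with a median of 9.78, 9.86 and 10.13 in untreated cells, and 9.55 at baseline. The groups overlapped between the IL-12 times. Its changes were -0.05 ± 0.07 at 8 h against 2 h (95% interval -0.20 to 0.10) and -0.16 ± 0.10 at 8 h against untreated (-0.37 to 0.05). The higher level in untreated cells than at baseline, 0.44 ± 0.13 (adjusted p = 0.0426), lost its call in 7 of 11 fits that left out 1 array.

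Smad7, the inhibitory SMAD, differed mainly between the runs of numbers. It was 8.61, 8.69, 9.24 and 9.36 at 8 h of IL-12, 8.80, 8.75, 8.62, 9.78 and 9.60 at 2 h, 9.71 and 9.62 in untreated cells, and 8.85 at baseline. The IL-12 arrays numbered 2 to 4 were at or below 8.80 and those with higher numbers at or above 9.24. The run term was -0.83 ± 0.08 (adjusted p = 6.57e-06), which made Smad7 1 of 3 members called lower in the lower run, with Tgfb1 and Tgfbr2, where 12.5% of all genes were called lower and 11.8% higher. The changes with IL-12 were -0.27 ± 0.10 at 8 h against untreated (adjusted p = 0.215), -0.06 ± 0.10 at 2 h against untreated (adjusted p = 0.999) and -0.22 ± 0.08 at 8 h against 2 h (adjusted p = 0.0834), which passed the threshold without IL-12 2 h array 4 (-0.256, adjusted p = 0.0489). Among arrays 5 and 6 the Smad7 change between the times was -0.39, and among arrays 2 to 4 it was -0.07.

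**Figure D3:**
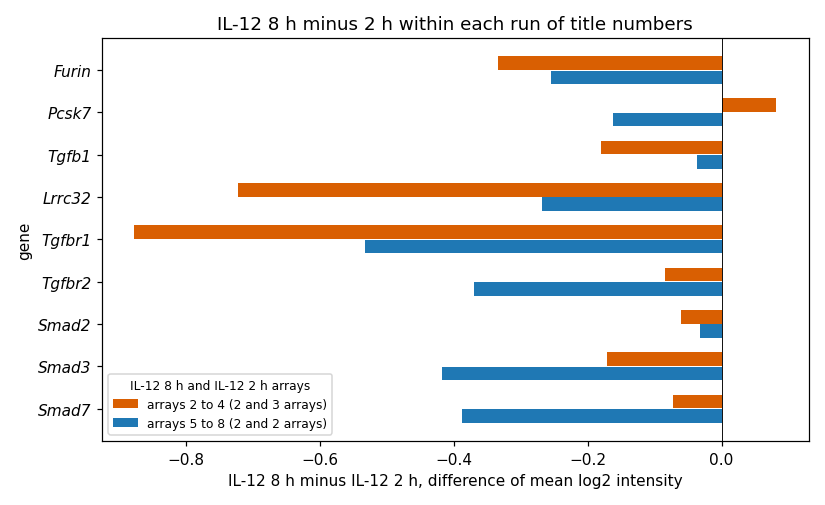
Difference of mean log2 intensity, IL-12 8 h minus IL-12 2 h, for each gene within the arrays numbered 2 to 4 and within arrays 5 and 6. Lrrc32 (-0.72 and -0.27) and Tgfbr1 (-0.88 and -0.53) were lower at 8 h in both runs, and Smad7 was close to 0 in the lower run (-0.07) and at -0.39 in the higher.

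Which members were lower at 8 h varied in part with the run. At 8 h against 2 h, 6 members were lower without overlap among arrays 2 to 4, where 22.1% of all genes were and 21.6% were higher. Among arrays 5 and 6, 6 members were lower without overlap, where 20.5% of all genes were and 21.9% were higher. Over both runs 4 members had every 8 h array below every 2 h array, namely Furin, Lrrc32, Tgfbr1 and Smad3, where 4.23% of all genes were, with 3.98% higher. The difference of the change between runs was called for 0 of the 9 members (limma) and for 1.96% of all genes. At an unadjusted p under 0.05 it was positive for 3 members and negative for 1, and positive for 1591 and negative for 1280 of the 19752 genes. Against untreated cells, 1 member was higher and 3 lower without overlap at 2 h, where 6.58% and 5.33% of all genes were, and 1 higher and 5 lower at 8 h, where 11.8% of all genes were in each direction.

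Untreated cells were above the baseline array for the convertase gene Furin and for receptor and SMAD genes. Tgfbr1 (0.97 ± 0.21, adjusted p = 0.009), Smad7 (0.81 ± 0.14, adjusted p = 0.00173), Tgfbr2 (0.44 ± 0.12, adjusted p = 0.0273) and Smad2 (0.44 ± 0.13) were called beside it. Tgfb1 (0.31), Lrrc32 (0.28), Smad3 (0.23) and Pcsk7 (0.08) were not called. The Tgfbr1 call was lost without untreated array 8 (0.73, adjusted p = 0.0567), and the Tgfbr2 call without untreated array 7 or 8. The spread for the single baseline array was borrowed from the other groups. The comparison also rests on its number: placed with arrays 2 to 4, which it resembled more, Furin alone stayed called and Smad7 was at -0.0134. Platelet and erythroid markers (6 measured, 4 of them called lower in untreated cells) averaged 7.01 and 7.21 in untreated cells, against 8.20 at baseline, while 3 of 7 B cell markers were lower, and 2 of 5 NK cell, 3 of 15 macrophage and monocyte, 1 of 2 CD8 T cell and 1 of 8 dendritic cell markers higher. Of 10 regulatory T cell markers, 2 were higher and 1 lower. The part of these markers in the members' differences was not tested.

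Other genes of the pathway were examined in 8 lists, which together held 90 measured genes that are not among the 9. At 2 h of IL-12 against untreated cells, 0 of the 90 were called (limma, with 2 higher and 1 lower when p was left unadjusted at the same threshold). At 8 h against untreated, 17 of the 90 were called lower and 0 higher, where 2.13% of all genes were called lower and 1.04% higher. At an unadjusted p under 0.05 in the same fit, 29 of the 90 were lower and 3 higher, where 1477 of the 19752 genes were lower and 1394 higher. The median log2 change of the 90 was -0.11, against -0.01 over all genes. At 8 h against 2 h of IL-12, 27 were called lower and 1 higher, where 6.36% of all genes were called lower and 6.27% higher, with a median of -0.08, against -0.01 over all genes. In untreated cells against baseline, 26 were called higher and 3 lower, where 6.28% of all genes were higher and 3.96% lower. Between the runs of numbers 31 were lower and 11 higher in the lower run, where 12.5% of all genes were lower and 11.8% higher, so many of these genes also varied with the run.

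**Figure D4:**
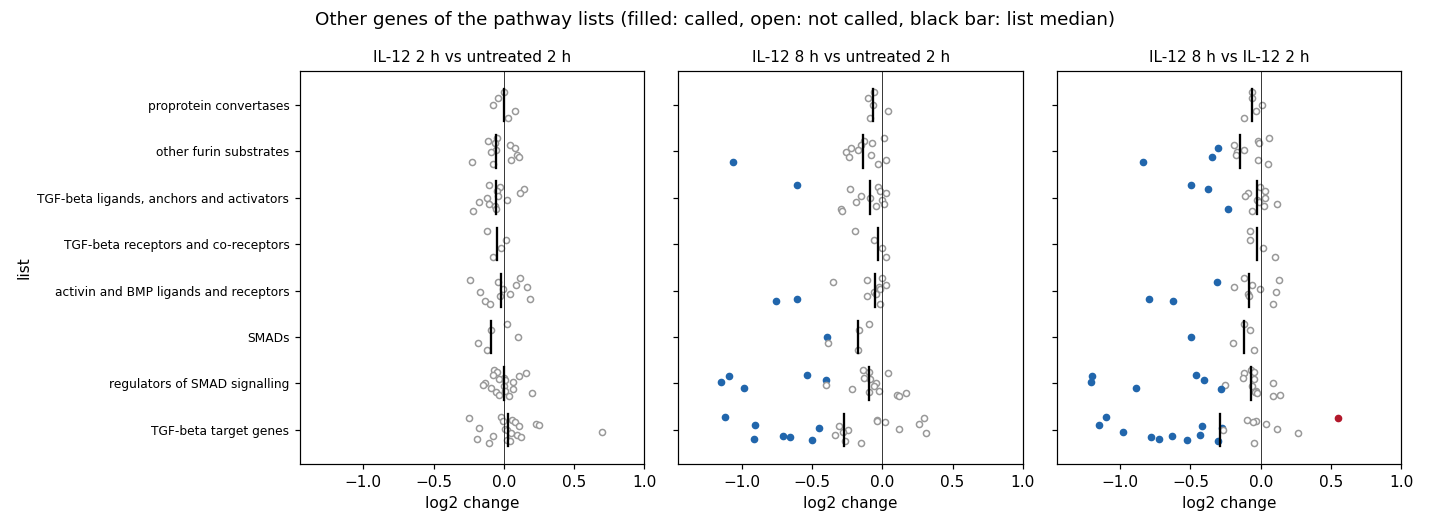
Log2 change (horizontal axis) of the measured genes of each pathway list that are not members, filled where called, with a black bar at the list median. Panels show IL-12 at 2 h and at 8 h against untreated cells, and 8 h against 2 h of IL-12. At 8 h against 2 h of IL-12, 11 of 20 TGF-beta target genes and 6 of 19 regulators of SMAD signalling were called lower.

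The regulators held the pathway genes with the smallest p at 8 h against 2 h of IL-12. Of 19 measured regulators of SMAD signalling, 6 fell and 13 did not pass. Pmepa1, a membrane protein that TGF-beta induces and that withholds SMAD2 and SMAD3 from the receptor, averaged 10.06 at 8 h and 11.36 at 2 h among arrays 2 to 4, and 11.29 and 12.36 among arrays 5 and 6, against 12.32 in untreated cells and 10.48 at baseline. Its change between the IL-12 times was -1.20 ± 0.06 (adjusted p = 5.39e-08). Skil (-1.21, adjusted p = 8.65e-07) and Tgif1 (-0.89, adjusted p = 2.28e-07), which encode corepressors of SMADs, fell too, as did Nedd4l (-0.46, adjusted p = 0.00055), a ubiquitin ligase for activated SMAD2 and SMAD3. These 4 were also lower at 8 h than in untreated cells, at -1.09 for Pmepa1, -1.14 for Skil, -0.98 for Tgif1 and -0.54 for Nedd4l. At 2 h against untreated none of them was called, with values of 0.11 for Pmepa1, 0.06 for Skil and -0.09 for Tgif1.

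Of 20 measured genes known to respond to TGF-beta, 11 fell and 1 rose at 8 h against 2 h of IL-12, with a list median of -0.29. Of all genes, 6.36% were called lower there and 6.27% higher. Many of them also respond to T cell receptor signals. Ccr8, a chemokine receptor of Th2 and regulatory T cells, fell by 1.10 (adjusted p = 3.82e-06). Nt5e, the ecto-enzyme CD73, fell by 0.78 (adjusted p = 2.01e-05), and its run term was larger, at -1.48 (limma adjusted p = 1.54e-07). It averaged 7.80 at 8 h and 8.67 at 2 h among arrays 2 to 4, and 9.38 and 10.05 among arrays 5 and 6. Klf10, a TGF-beta-inducible transcription factor, fell by 0.63 (adjusted p = 2.12e-05). The stress gene Gadd45b fell by 1.15 (adjusted p = 3.26e-05). Cdkn1b, which encodes the cell cycle inhibitor p27, was the riser at 0.55 (adjusted p = 0.0021). At 8 h against untreated, 7 of the 20 fell, with Ccr8 at -1.12, Klf10 at -0.71, Rgs16 at -0.91 and Nt5e at -0.66 having the smallest p. The change between the IL-12 times differed between the runs for 7 of the 90 genes, where 1.96% of all genes were called. Of those 7, 4 were in this list: Itgae (-0.63, adjusted p = 0.00974), Gadd45b (-0.74, adjusted p = 0.0123), Foxp3 (-0.61, adjusted p = 0.0309) and Cdkn1b (0.57, adjusted p = 0.0395). Foxp3, the regulator of regulatory T cells, averaged 9.21 at 8 h and 9.45 at 2 h among arrays 2 to 4, and 9.98 at 8 h and 9.62 at 2 h among arrays 5 and 6. Itgae, which encodes the integrin chain CD103 and was dimmer than the median gene, averaged 7.09 at 8 h and 7.12 at 2 h among arrays 2 to 4, and 7.96 at 8 h and 7.35 at 2 h among arrays 5 and 6. Neither was called between the IL-12 times over both runs. Outside this list, the ubiquitin ligase gene Smurf2 (0.47, adjusted p = 0.0445) also differed between the runs, as did Notch2 and Insr among the furin substrates.

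The remaining lists held fewer calls. Among 15 measured ligands, anchors and activators, 4 fell at 8 h against 2 h: Lrrc32, the integrin subunit genes Itgav (-0.50, adjusted p = 0.00013) and Itgb8 (-0.37, adjusted p = 0.0196), whose products pair to activate latent TGF-beta, and Tgfb3 (-0.24, adjusted p = 0.0412). Itgb8 and Tgfb3 were dimmer than the median gene, as were Acvr2a and Pcsk1 of the other lists. Among the 8 SMADs, Smad3 fell, and so did Smad5, a SMAD of the BMP branch, at -0.49 (adjusted p = 5.56e-05). Among 12 activin and BMP ligands and receptors, 3 fell: the receptor genes Bmpr2 (-0.80, adjusted p = 8.21e-05) and Acvr2a (-0.31, adjusted p = 0.0064) and the activin A subunit gene Inhba (-0.62, adjusted p = 0.00169). Of 12 other furin substrates, Pdgfb (-0.84, adjusted p = 3.92e-05), Igf1r (-0.31, adjusted p = 0.0319) and Notch2 (-0.35, adjusted p = 0.0473) were called lower and 9 did not pass. The Notch2 change differed between the runs (-0.68, adjusted p = 0.0104): it averaged 9.75 at 8 h and 10.41 at 2 h among arrays 2 to 4, and 10.22 at 8 h and 10.20 at 2 h among arrays 5 and 6. Igf1r averaged 8.63 at 8 h and 9.14 at 2 h among arrays 2 to 4, and 9.54 at 8 h and 9.60 at 2 h among arrays 5 and 6, with no called difference between the runs (adjusted p = 0.0863). Insr, the insulin receptor gene, which was not called between the IL-12 times, also differed between the runs (0.72, adjusted p = 0.028).

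The genes whose level followed Furin most closely over the 12 arrays were Gbp5 (Pearson r 0.939), Gbp3 (0.937), Il18r1 (0.936), Gnaq (0.935) and Neb (0.926). Gbp5 and Gbp3 encode interferon-inducible GTPases and Il18r1 a chain of the IL-18 receptor. After each array was set against the mean of its number run, the closest were Trib2 (0.962), Ms4a6d (0.952), Jun (0.942), Kif1b (0.939) and Ccdc90b (0.939). The leading genes thus depended on the centring, and both sets of points share the groups and the runs. Arrays 2 to 4 are all IL-12 arrays, so the centring also removed part of the difference between IL-12 and the other groups. For Lrrc32 the closest were Sdc4 (0.968), Got1 (0.931), Tulp3 (0.926), Gata3 (0.923), the regulator of Th2 cells, and Pdlim1 (0.92). After the same centring Sdc4, a heparan sulfate proteoglycan of the cell surface, was again first (0.966), followed by Slc30a2 (0.949), E130309D02Rik (0.947), Hs3st3b1 (0.935) and Arid3a (0.929).

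Among the members themselves, Tgfb1 with Smad7 (0.877), Tgfbr2 with Smad7 (0.867), Tgfbr2 with Smad3 (0.855) and Lrrc32 with Smad3 (0.838) had the highest correlations over the 12 arrays. With the run centred, Tgfbr2 with Smad3 (0.872) and Lrrc32 with Smad3 (0.82) kept theirs and Tgfb1 with Smad7 was at 0.703. Furin's correlations with the other members depended on the centring, which also took out part of the difference between IL-12 and the other groups. Over the 12 arrays they ran between -0.39 (Lrrc32) and 0.426 (Pcsk7), with Smad3 at -0.374, Tgfb1 at -0.0163 and Smad7 at -0.102. With the run centred they ran between -0.237 (Smad3) and 0.695 (Smad7), with Lrrc32 at -0.157, Tgfb1 at 0.6, Tgfbr1 at 0.499 and Smad2 at 0.454.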

How the data were processed

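RNA of 12 samples was measured on 1 array each. The deposited table holds linear intensity per probe set; RMA and Affymetrix Power Tools are named, without version, per the submitters' processing notes. Their genome build and annotation were not given in the sources used here. Intensities were log2-transformed without further normalization. GEO's platform annotation gave 1 symbol for 21425 probe sets, several for 1399 and none for 2098, and the last 2 kinds were left out. The brightest probe set stood for each of 921 genes with several, leaving 19752 genes.

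The tool was limma 3.58.1 (lmFit, eBayes; R 4.3.3). Group means for the 4 groups and a term for the number run (titles 2 to 4 against 5 to 8) were fitted to the 12 arrays together; residual degrees of freedom were 7 and prior ones 6.84. Tests were two-sided, p-values were adjusted by Benjamini-Hochberg across the 19752 genes, and 0.05 was the threshold. The fit was tested on simulated data, and results were recomputed with each array left out and under 13 other settings. Promoter sequences are RefSeq's; Python 3.11.15 and matplotlib 3.10.9 drew the plots. The 9 genes, the lists and the tests were chosen with earlier results of these data known. Named pathway genes are up to 4 called genes per list and comparison with the smallest p, and genes named as alike are the 5 with the highest correlation.

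The IL-12 groups share the numbers 2, 3, 5 and 6. Deviations of same-numbered arrays from their group means correlated at 0.365, 0.3, 0.519 and 0.372 across genes. The highest correlation of the 8 h array with a 2 h array of another number was 0.501, 0.498, 0.407 and 0.434. With the run removed, same-numbered arrays were at -0.264, -0.177, 0.0255 and 0.0255, and the highest other at 0.231, 0.264, 0.0575 and 0.082. These values do not show that the numbers mark pairs, and the number was used as a replicate block as an alternative only.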

Additional observations from a re-analysis of the deposited data

Results flagged for a closer look

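The highest of the 5 IL-12 2 h values of Tgfbr1, on array 6, stood apart: its gap to the next array took up 0.736 of the group's range. It was at 10.68, with the other arrays at 10.16 to 10.30. Untreated array 8 was close to it at 10.64, while untreated array 7 and IL-12 2 h array 5 were both at 10.16. Of the members' groups, 18 were large enough for this check, which chance passes in about 1 group of 20.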

How the results depend on the processing

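The number of arrays limits precision: across genes, the median SE was 0.0689 between the IL-12 times, 0.0949 against untreated cells and 0.125 against baseline. Numbers of genes called below are out of all 19752, and numbers of members out of 9.

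IL-12 at 2 h against untreated called 14 genes and 1 member. It called 9 genes without the run term, 1 among arrays 5 to 8 alone and 1 with the macrophage and monocyte marker mean as a covariate, and 0 members in those last 2 settings and with baseline pooled with untreated (Furin 1.31, adjusted p = 0.199). Signs turned for changes that were not called: without the run term Tgfb1 was -0.187 and Tgfbr1 -0.0678, among arrays 5 to 8 Tgfb1 was -0.0322 and Smad7 0.0287, with baseline pooled Smad2 was 0.0396 and Smad7 0.214, and with the covariate Pcsk7 was -0.0761 and Tgfb1 -0.0377. Leaving out 1 array gave 2 to 14 genes, with 2 without untreated array 7, 5 without untreated array 8 and 9 without IL-12 2 h array 3. Over those fits Pcsk7 ran from -0.08 to 0.0621, Tgfb1 from -0.119 to 0.133, Tgfbr1 from -0.125 to 0.354 and Smad2 from -0.245 to 0.0274.

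IL-12 at 8 h against untreated called 625 genes and 4 members. It called 243 genes without the run term (Pcsk7 0.0216), 320 among arrays 5 to 8, 90 genes and 2 members with baseline pooled (Pcsk7 0.0133), and 53 genes and 0 members with the covariate. Leaving out 1 array gave 267 to 663 genes and 2 to 5 members, with 267 genes and 2 members without untreated array 8 and 300 genes without untreated array 7. Pcsk7 ran from -0.0597 to 0.0631 and Tgfb1 from -0.234 to 0.0175.

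IL-12 at 8 h against 2 h called 2496 genes and 5 members. It called 871 genes and 3 members without the run term, 363 and 0 among arrays 5 and 6, 3 members among arrays 2 to 4 (Pcsk7 0.0818), and 877 genes and 3 members with the covariate. With the title number as a replicate block it called 1246 genes and 3 members: Tgfbr1 (-0.704, adjusted p = 0.0072), Lrrc32 (-0.529, adjusted p = 0.0217) and Furin (-0.317, adjusted p = 0.029). The block changed no member's call other than those of Tgfbr2 and Smad3. No paired analysis was possible for the other comparisons because their groups share fewer than 2 numbers. Leaving out 1 array gave 1525 to 2536 genes, the fewest without IL-12 8 h array 3, and 4 or 5 members, and Pcsk7 ran from -0.0969 to 0.0308.

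Untreated against baseline called 2022 genes and 5 members. It called 115 genes and 1 member without the run term, 3 members among arrays 5 to 8, 47 genes and 0 members with the covariate, and 204 genes and 1 member with baseline placed with arrays 2 to 4, where Tgfb1 was -0.0137, Lrrc32 -0.00068 and Smad7 -0.0134. Leaving out 1 array gave 1464 to 2222 genes and 2 to 5 members, with 2 members without untreated array 8. The cause of these changes was not tested. Quantile normalization, a trended robust prior, an offset of 16, leaving out the dimmest 25% of genes, averaging a gene's probe sets and fitting the 9 IL-12 arrays alone turned no member's sign and gave counts of genes and members close to those above.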
